A study of Oncorhynchus mykiss with 12 samples.

Results

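The comparison set the liver microRNAs (miRNAs) of rainbow trout refed a high-carbohydrate meal (highCHO) against those of fasted trout. Members were all miRNA sequences that passed a filter on low counts, 340 of the 1696 in the deposited table. Small RNA had been sequenced on an Illumina GAIIx from the liver of adult trout labelled wild type and of strain Walbaum. The fasted group (livers 7, 8, 10 and 13) had gone without food for 4 days, and the highCHO group (livers 38, 45, 49 and 50) had been refed acutely. The remaining group (noCHO; livers 20, 21, 31 and 33) was refed a meal without carbohydrate. The contrast of highCHO with noCHO tests whether the change from fasting differs between the meals, since both share the fasted libraries. Neither the time since the meal nor the kind of carbohydrate is given in the sources used here. The labels number the livers without saying that each is a separate fish, so p-values measure the spread between these samples.

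A miRNA is cut from a hairpin precursor, and either the 5′ strand (5p) or the 3′ strand (3p) can enter the silencing complex. There bases 2 to 8, the seed, pair with messenger RNAs and lower their output. Trout are carnivores that clear glucose slowly after a starchy meal, and the liver is where glucose is stored, made and turned into fat. In mammals, several of the families described here have been tied to these pathways. let-7 represses the insulin receptor and Irs2, and the 5p strand of miR-145 represses Irs1. miR-27 has been tied to Pparg, miR-128-3p to Abca1, miR-148 and miR-152 to Dnmt1, miR-30 to Mttp in lipoprotein assembly, and miR-101 to Ezh2. These are background from mammals. Target sites in trout transcripts were not analysed here.

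The named sequences that differed between highCHO and fasted liver, without the 1 predicted candidate and with the main relatives and opposite strands needed to read them, are given 5′ to 3′ in the deposited letters, with the seed in capitals. By their deposited names, those that fell came from miR-19, miR-101, miR-152, miR-722 and miR-30. dre-miR-30e-5p_R+2, which did not pass, stands last for comparison:
ssa-miR-19c-3p_R-1: tGTGCAAAtccatgcaaaact
dre-miR-19c-3p_1ss23GT: tGTGCAAAtccatgcaaaactct
dre-miR-19d-3p_1ss13TA: tGTGCAAAcccaagcaaaactga
dre-miR-19a-3p_L+1R-2: tTGTGCAAatctatgcaaaact
fru-miR-101b_2ss21AC22GT: tACAGTACtatgataactgact
dre-miR-101a: tACAGTACtgtgataactgaag
ola-miR-101b-5p: tCAGTTATcatggtaccggtgct
fru-miR-152: tCAGTGCAtaacagaactttgt
dre-miR-722_L-2: tTTTGCAGaaacgtttcagatt
ssa-miR-30e-5p: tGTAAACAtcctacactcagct
dre-miR-30e-5p_R+2: tGTAAACAtccttgactggaagct

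Those that rose came mainly from miR-145, miR-27, miR-128, let-7 and miR-429a. Opposite strands, the longer form ola-miR-27c-5p_L+1R+1_1ss12CA of ssa-miR-27d-5p and the common let-7a stand beside them for comparison:
ssa-miR-145-3p_L+2R-1: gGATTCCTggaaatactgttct
ola-miR-145_L+1R+4: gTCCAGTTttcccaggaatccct
ssa-miR-27d-5p: aGGACTTAgcacacatgtgaaca
ola-miR-27c-5p_L+1R+1_1ss12CA: cAGGACTTagcacacatgtgaaca
dre-miR-27b-3p_R-1: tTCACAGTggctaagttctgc
dre-miR-27d_R-1_2ss11CT20TG: tTCACAGTggttaagttctgc
ssa-miR-128-2-5p: cGGGGCCGgggcactgtctgaga
ssa-miR-128-1-5p_1ss12CT: cGGGGCCGggatgctgtctgaga
ccr-miR-128: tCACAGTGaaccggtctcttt
dre-let-7a: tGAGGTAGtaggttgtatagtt
dre-let-7c-5p_1ss19GC: tGAGGTAGtaggttgtatcgtt
dre-let-7d-5p: tGAGGTAGttggttgtatggtt
pol-let-7a-3p_R+1_1ss3AG: cTGTACAAcctactgccttcct
dre-miR-429a: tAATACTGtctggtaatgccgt
ipu-miR-7550_L-1R-1: tCCGGCTCgaaggacc

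The libraries of both groups differed before any miRNA was compared. Inserts under 15 nt made up 7.63 to 11.6% of adapter-containing reads in fasted and 14.2 to 32.2% in highCHO libraries, without overlap, and the miRNA share of mappable reads and the raw read number did not overlap either. For each of these 3 measures the two-sided exact permutation p was 0.0286, the smallest that 4 against 4 allows, and the adjusted p over 6 measures was 0.0571. Counts assigned to miRNAs ran from 197684 (highCHO 49) to 3057706 over all 12 libraries. No label names a batch. A library set was instead inferred from the counts of dre-let-7a and dre-let-7c-5p_1ss19GC alone, the latter a sequence tested below. All highCHO libraries, but no fasted library, belong to the set in which over 2% of these let-7a-like reads carry the A19C difference (positions from 1 at the 5′ end of dre-let-7a). noCHO 31 and 33 are the other members of that set, so they give the only comparison of highCHO livers within a set. Library set and meal cannot be told apart between highCHO and fasted liver. The part of short inserts in the results was not tested. Fits with a term for them are given below, but the shares do not overlap between the groups. Such a term therefore cannot cleanly separate short inserts from the meal. miR-122, the defining hepatocyte miRNA, summed to 268952 to 289111 CPM (counts scaled to a library of fixed size) in fasted and 227953 to 307607 CPM in highCHO libraries. The labelled tissue thus had its main marker in every library. The pancreas markers summed to 16100 CPM in highCHO 38, beside at most 261 CPM in the other highCHO and 376 CPM in fasted libraries.

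In highCHO liver 11 sequences rose and 10 fell, 6.18% of the 340 tested (3.24% higher and 2.94% lower), with edgeR's quasi-likelihood test and a Benjamini-Hochberg adjusted p under 0.05. They came from 11 named families and 1 predicted candidate. Their sizes ran from 1.59-fold to 6.88-fold, and the median log2 change of all 340 was 0.03. Levels are CPM after TMM scaling, and fold changes are from the fit. Of all 340 sequences, 17.1% had 4 highCHO values that did not overlap the 4 fasted values. The number called depended on single libraries: it was 13 without fasted 7, 7 without fasted 8, 8 without fasted 10 and 13 without highCHO 45. With a term for the library set it was 13, and with one for the short-insert percentage 3.

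**Figure D1:**
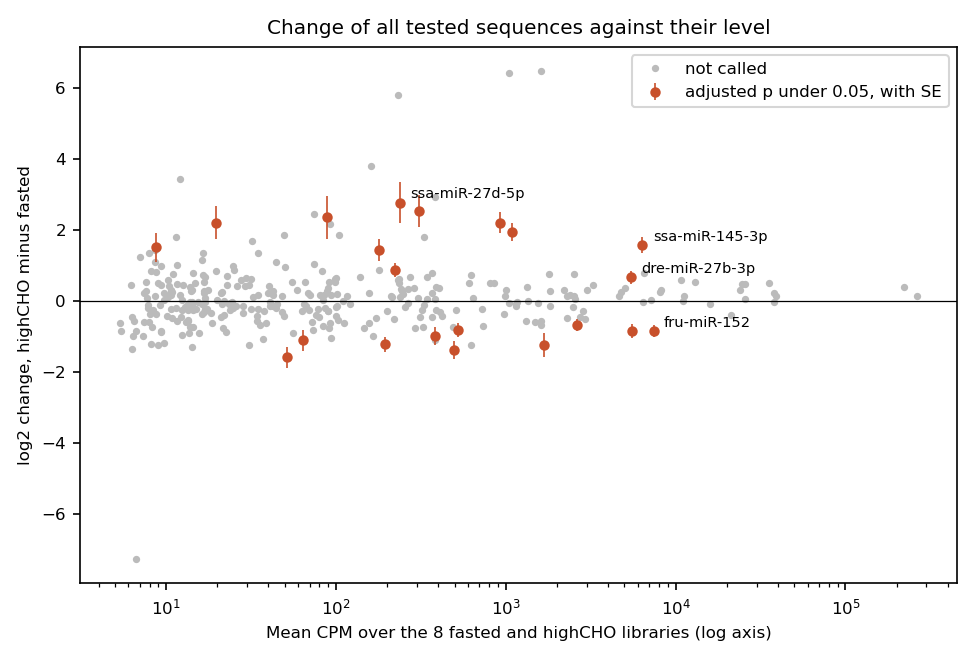
Fitted log2 change (highCHO minus fasted, vertical axis) against mean CPM over the 8 libraries (log axis) for all 340 tested sequences. Red points with SE bars are the 21 with an adjusted p under 0.05, which lie at both low and high levels, from the miR-128 5p strands at the left to miR-152 and miR-145-3p at the right.

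The miR-19 sequences, members of a family whose mammalian forms are cut from the miR-17-92 cluster and are best known for promoting growth, gave the most calls among the fallers, 4 of 7 (beside 2.94% lower over all sequences). dre-miR-19a-3p_L+1R-2 had 602, 782, 927 and 553 CPM in fasted livers 7, 8, 10 and 13, and 284, 262, 327 and 240 CPM in highCHO livers 38, 45, 49 and 50. Every highCHO value was thus below every fasted one, and the fitted level was 2.58-fold lower (log2 −1.36, SE 0.25, edgeR adjusted p = 0.00723). ssa-miR-19c-3p_R-1 went from 254, 292, 332.8 and 216.95 CPM to 123, 132, 115 and 99.4 CPM in the same order of livers (log2 −1.22, SE 0.22, adjusted p = 0.00715). dre-miR-19c-3p_1ss23GT, the same sequence over the first 21 bases but ending 2 bases later, had 73.7, 110, 74.1 and 49.3 CPM against 27.6, 18.5, 39.8 and 21.0 CPM (log2 −1.58, SE 0.29, adjusted p = 0.00723). Both lengths of miR-19c were therefore lower. dre-miR-19d-3p_1ss13TA held 91.6, 89.8, 82.1 and 89.9 CPM in fasted and 65.7, 37.0, 17.7 and 35.4 CPM in highCHO livers (log2 −1.11, SE 0.29, adjusted p = 0.0434). Its fasted values were tight, and its highCHO values spread more widely.

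The other 3 tested miR-19 sequences did not pass. ssa-miR-19d-3p_R-1, at 293 ± 18.8 CPM (fasted) and 315 ± 116 CPM (highCHO; mean ± SD, n = 4 each), had a log2 change of 0.10 (SE 0.28). It has the same bases as dre-miR-19d-3p_1ss13TA but ends earlier. Only the longer and rarer length of miR-19d was therefore called lower. Summed over the miR-19 seed GTGCAAA, 9 sequences gave 791 ± 81.2 CPM in fasted and 522 ± 132 CPM in highCHO livers, without overlap, and the sum did not pass (log2 −0.60, SE 0.19, adjusted p = 0.0743). dre-miR-19a-3p_L+1R-2 carries 1 extra base at its 5′ end, so its seed reads TGTGCAA, and that seed sum fell (log2 −1.40, SE 0.24, adjusted p = 0.00485). Leaving out any 1 library kept the calls of the first 3 miR-19 sequences. dre-miR-19d-3p_1ss13TA was lost without any 1 fasted library or without highCHO 45 or 50 (adjusted p 0.0760 to 0.116). In noCHO livers 31 and 33, of the same library set, dre-miR-19a-3p_L+1R-2 had 603 and 669 CPM, above all 4 highCHO livers. Its seed sum had 511 and 326 CPM in noCHO livers 20 and 21, beside 271 to 293 CPM in highCHO livers. Neither the sequence nor its seed sum passed between the meals (seed sum −0.88, SE 0.23, edgeR adjusted p = 0.0651).

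In the list of miR-17-92 and its relatives, 24 sequences were tested, of which 18 had a lower and 6 a higher level in highCHO liver, with a median log2 change of −0.49 beside 0.03 for all sequences. The calls in this list were the 4 miR-19 sequences (16.7%, beside 2.94% lower over all sequences), which include both lengths of miR-19c. The list was chosen with earlier results of these data known, so its share is no independent support. The miR-18 seed AAGGTGC, of a second member of the mammalian cluster, also passed as a sum, at 65.5 ± 10.2 CPM in fasted and 35.7 ± 5.70 CPM in highCHO livers (log2 −0.86, SE 0.21, adjusted p = 0.0408). Neither of its sequences passed alone. Of the 6 tested miR-92 sequences, which include the most abundant of this list, 4 were higher and 2 lower (median log2 0.08). The miR-92 seed ATTGCAC, shared with miR-25, summed to 7024 ± 738 CPM in fasted and 7498 ± 749 CPM in highCHO livers. That sum did not pass (log2 0.09, SE 0.13, edgeR adjusted p = 0.770). Without fasted 8, 10 or 13, or highCHO 45, 49 or 50, the miR-18 sum did not pass (adjusted p 0.0577 to 0.114).

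miR-101, a family abundant in mammalian liver, had calls on both strands of its hairpin. fru-miR-101b_2ss21AC22GT had 2748, 2405, 2647 and 1650 CPM in fasted livers 7, 8, 10 and 13 and 946, 831, 827 and 1404 CPM in highCHO livers 38, 45, 49 and 50. Fasted 13 and highCHO 50 came nearest to each other, and the groups did not overlap (2.36-fold lower, log2 −1.24, SE 0.34, adjusted p = 0.0496). dre-miR-101a had 605, 806, 699 and 567 CPM against 425, 422, 243 and 428.99 CPM (log2 −0.81, SE 0.21, adjusted p = 0.0434). The opposite strand, ola-miR-101b-5p, had 493, 646, 504 and 400 CPM against 274, 196, 292 and 266 CPM (log2 −0.99, SE 0.26, adjusted p = 0.0434). All 5 tested miR-101 sequences were lower, and 3 of them passed. Over all 340 tested sequences 174 had a change above 0, and 2.94% were called lower. The seed ACAGTAC, shared by miR-101a and miR-101b, fell as a sum from 3102 ± 539 to 1386 ± 411 CPM (log2 −1.16, SE 0.29, adjusted p = 0.0460). Each of the 3 calls was lost in 6 of the 8 fits that left out 1 library, among them fasted 7, 8 and 10 and highCHO 45 and 49 for all 3, fru-miR-101b_2ss21AC22GT also without highCHO 38 and the other 2 also without highCHO 50 (adjusted p 0.0623 to 0.175). The seed sum was lost without any 1 fasted library or without highCHO 45 or 49 (0.0541 to 0.117).

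fru-miR-152, which shares the seed of miR-148, was the most abundant sequence to fall. It had 10046, 8797, 10183 and 9123 CPM in fasted and 5245, 5770, 3675 and 6537 CPM in highCHO livers, a wide gap between the groups (1.80-fold lower, log2 −0.85, SE 0.17, adjusted p = 0.0138). Its level also differed between the meals, by −0.96 in highCHO minus noCHO (SE 0.17, adjusted p = 0.0129), 1 of 8 sequences (2.35%) to pass that contrast. noCHO livers 31 and 33 of the same library set had 11926 and 10550 CPM. The opposite strand ssa-miR-152-5p_L-1 had a log2 change of 0.21 (SE 0.33). dre-miR-148_R-1, with the same seed, had 0.07 (SE 0.33), and the sum over that seed, CAGTGCA, was at −0.16 (SE 0.32, adjusted p = 0.821). fru-miR-152 was lost without fasted 8 (adjusted p = 0.113) or fasted 10 (0.114), and its difference between meals without noCHO 21 or 31 (0.0574 to 0.0611).

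dre-miR-722_L-2, known from zebrafish, fell from 6002, 7691, 7518 and 7382 CPM to 4604, 3498, 3369 and 4381 CPM (log2 −0.85, SE 0.19, adjusted p = 0.0232). The groups did not overlap. It too differed between the meals (highCHO minus noCHO −1.02, SE 0.19, adjusted p = 0.0129). ssa-miR-30e-5p had 3337, 3104, 3465 and 2931 CPM in fasted and 2079, 1597, 2445 and 1955 CPM in highCHO livers (log2 −0.67, SE 0.17, adjusted p = 0.0434). dre-miR-30e-5p_R+2, which shares its seed, had 38112 ± 2783 CPM in fasted and 37852 ± 7144 CPM in highCHO livers (mean ± SD, n = 4 each), a log2 change of −0.01 (SE 0.16). Despite the shared name, it differs from ssa-miR-30e-5p at 7 bases beyond the seed. The shared name thus does not make them forms of 1 miRNA, and which miR-30 member ssa-miR-30e-5p is was not determined here. The miR-30 seed GTAAACA had 0.08 as a sum (SE 0.16, adjusted p = 0.821). dre-miR-722_L-2 was lost without fasted 8 or 10 or highCHO 45 or 49 (0.0700 to 0.116), and its difference between meals without noCHO 21, 31 or 33 or highCHO 49 (0.0587 to 0.0762). ssa-miR-30e-5p passed in the fit without highCHO 49 and in none of the other 7 (0.0568 to 0.127).

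**Figure D2:**
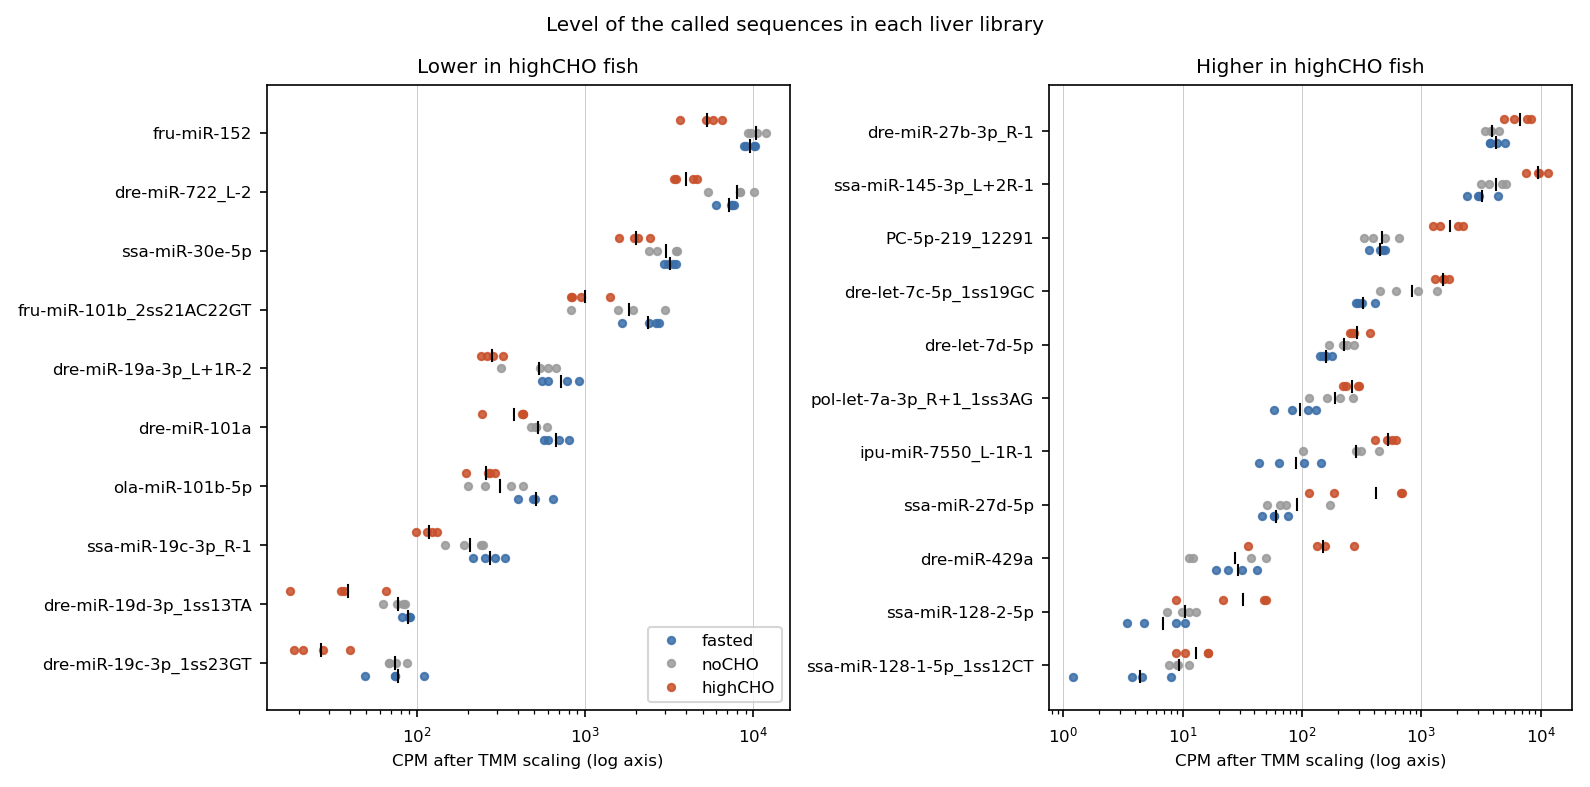
CPM after TMM scaling (log axis) of the 21 called sequences in each library, with fasted, noCHO and highCHO livers as coloured points and group means as black bars. The left panel holds the 10 that were lower in highCHO liver, none of which overlaps the fasted livers, and the right panel the 11 that were higher, of which 3 overlap. Over all 340 tested sequences 17.1% did not overlap. The 21 were picked by a test of these same values, so their separation is no further result.

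Among the sequences that rose, the 3p strand of miR-145 reached the highest level. miR-145 is enriched in smooth muscle and fibroblasts of mammals. ssa-miR-145-3p_L+2R-1 had 4370, 2424, 3011 and 3032 CPM in fasted livers 7, 8, 10 and 13 and 11560, 9444, 9750 and 7477 CPM in highCHO livers 38, 45, 49 and 50. The lowest highCHO value stood well above the highest fasted one (2.98-fold higher, log2 1.57, SE 0.22, adjusted p = 0.00124), and the difference from noCHO also passed (1.19, SE 0.22, adjusted p = 0.0129). The opposite strand, ola-miR-145_L+1R+4, had 2256 ± 530 CPM in fasted and 2530 ± 1564 CPM in highCHO livers (mean ± SD, n = 4 each; log2 0.17, SE 0.37). The seed GATTCCT, which some miR-23a-5p sequences share, rose as a sum (log2 1.54, SE 0.21, adjusted p = 8.26e-04). The fibroblast and smooth muscle markers, which include miR-145, summed to 58167 to 65686 CPM in fasted and 56767 to 85667 CPM in highCHO livers, and their part in the miR-145-3p result was not tested. In whole liver, more cells of a type and more RNA per cell cannot be told apart. noCHO livers 31 and 33 had 5135 and 3672 CPM of ssa-miR-145-3p_L+2R-1. With the library set as a term its change was 1.43 (adjusted p = 0.0724).

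Of the 9 tested sequences of miR-27, a family studied in mammals for fat cell differentiation and lipid handling, 2 rose, a 5p strand of miR-27d and a 3p strand of miR-27b. The share called higher over all sequences was 3.24%. ssa-miR-27d-5p had 46.4, 58.6, 76.4 and 58.8 CPM in fasted and 114, 690, 672 and 187 CPM in highCHO livers. All 4 highCHO values were above the fasted ones, with livers 45 and 49 far above 38 and 50 (6.88-fold higher, log2 2.78, SE 0.58, adjusted p = 0.0138). ola-miR-27c-5p_L+1R+1_1ss12CA, despite its name, has all the bases of ssa-miR-27d-5p with an extra C at the 5′ end. It went from 44.4 ± 11.02 to 164 ± 113 CPM and did not pass (log2 1.87, SE 0.52, adjusted p = 0.0548). The seed sum of ssa-miR-27d-5p, GGACTTA, rose (log2 2.69, SE 0.56, adjusted p = 0.0169). dre-miR-27b-3p_R-1 had 4344, 3751, 5028 and 3784 CPM against 4968, 5939, 8366 and 7716 CPM, where highCHO 38 lay below fasted 10 (log2 0.67, SE 0.18, adjusted p = 0.0496). It differed between the meals by 0.79 (SE 0.18, adjusted p = 0.0420).

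The main miR-27d strand, dre-miR-27d_R-1_2ss11CT20TG, stood at 7031 ± 1391 CPM in fasted and 7208 ± 1790 CPM in highCHO livers (log2 0.04, SE 0.27). ssa-miR-27d-3p had a log2 change of −0.70 (SE 0.36, adjusted p = 0.235) and dre-miR-27b-5p_R-1 one of −0.23 (SE 0.26, adjusted p = 0.639). The seed of the 3p strands, TCACAGT, gave a sum over 11 sequences with a log2 change of 0.19 (SE 0.19, adjusted p = 0.643). dre-miR-27b-3p_R-1 passed in 1 of the 8 fits that left out a library, that without highCHO 38 (0.0700 to 0.124 in the other 7), and its difference between meals also passed only there (0.0534 to 0.128 in the other 7). ssa-miR-27d-5p was lost without fasted 8 (0.0518), and its seed sum without fasted 8, 10 or 13 (0.0530 to 0.0749). With a term for the short-insert percentage ssa-miR-27d-5p had a change of 1.18 (adjusted p = 0.381).

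Of the 3 tested miR-128 sequences with the 5p seed GGGGCCG, 2 rose (beside 3.24% higher over all sequences), both from very low levels. ssa-miR-128-2-5p had 10.5, 4.79, 3.42 and 8.72 CPM in fasted and 21.9, 48.5, 8.84 and 49.7 CPM in highCHO livers, and the shallow highCHO 49 overlapped the fasted range (log2 2.21, SE 0.46, adjusted p = 0.0138). ssa-miR-128-1-5p_1ss12CT had 8.05, 1.20, 4.56 and 3.79 CPM against 10.4, 16.2, 8.84 and 16.2 CPM (log2 1.52, SE 0.41, adjusted p = 0.0496). The levels rest on as few as 2 counts in a library for the first and 1 for the second, and in highCHO 49 a single count is 5.06 CPM before scaling. The other, ssa-miR-128-3-5p, had 9.45 ± 5.37 CPM in fasted and 11.8 ± 5.81 CPM in highCHO livers (log2 0.31, SE 0.44, adjusted p = 0.726). The sum over that seed overlapped between the groups and did not pass (log2 1.48, SE 0.40, adjusted p = 0.0595). In noCHO livers 31 and 33 ssa-miR-128-2-5p had 7.43 and 9.83 CPM and ssa-miR-128-1-5p_1ss12CT 8.92 and 7.65 CPM, each overlapping the highCHO range. ccr-miR-128, the abundant strand tied to lipid genes in mammals, had 1184 ± 132 CPM in fasted and 1123 ± 194.3 CPM in highCHO livers (log2 −0.08, SE 0.17). ssa-miR-128-2-5p was lost without fasted 8 or 10 (0.0567 to 0.0642), and ssa-miR-128-1-5p_1ss12CT without fasted 8, 10 or 13 or highCHO 38, 45 or 50 (0.0521 to 0.118).

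Of the 22 tested let-7 sequences 18 were higher and 3 passed (13.6%, beside 3.24% higher over all sequences), with a median log2 change of 0.36. 1 of the 3 is the sequence that defines the library sets. dre-let-7d-5p, which differs from dre-let-7a by A10T and A19G, had 160, 150, 142.5 and 179 CPM in fasted and 371, 253, 261 and 274 CPM in highCHO livers (log2 0.88, SE 0.20, adjusted p = 0.0237). The groups did not overlap. pol-let-7a-3p_R+1_1ss3AG, from the opposite strand, had 132, 58.6, 82.1 and 113 CPM against 298, 293, 234 and 222 CPM (log2 1.44, SE 0.30, adjusted p = 0.0138), and its seed TGTACAA rose as a sum (1.18, SE 0.27, adjusted p = 0.0334). dre-let-7c-5p_1ss19GC, with A19C, had 319, 281, 296 and 411 CPM against 1707, 1508, 1309 and 1555 CPM (log2 2.22, SE 0.30, adjusted p = 0.00119). Its noCHO values were 451.3 and 617 CPM in livers 20 and 21 and 938 and 1348 CPM in livers 31 and 33, the last inside the highCHO range.

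The abundant let-7 forms did not pass. dre-let-7a had 29047 ± 4162 CPM in fasted and 41706 ± 4744 CPM in highCHO livers (log2 0.52, SE 0.18, adjusted p = 0.0902), and the let-7 seed GAGGTAG summed over 27 sequences had a change of 0.40 (SE 0.19, adjusted p = 0.222). The same sum differed between the meals by 0.05 (SE 0.19, adjusted p = 0.933). dre-let-7d-5p was lost without fasted 7, 8 or 10 (0.0726 to 0.0780), pol-let-7a-3p_R+1_1ss3AG without fasted 8 or 10 (0.0518 to 0.0567), and the seed TGTACAA without fasted 8, 10 or 13 or highCHO 45 (0.0646 to 0.114). Because let-7 and miR-19 members are so alike in sequence, how reads were divided among them is uncertain.

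3 more sequences rose. dre-miR-429a, an epithelial miRNA of the miR-200 family, had 19.2, 23.9, 42.2 and 31.5 CPM in fasted and 273, 154.8, 132.7 and 35.4 CPM in highCHO livers, where liver 50 lay within the fasted range (log2 2.36, SE 0.61, adjusted p = 0.0434). The epithelial markers, which include it, summed to 2156 to 3116 CPM in fasted and 1690 to 7833 CPM in highCHO livers. Liver 38, which also had the high pancreas marker sum, was the highest, and the part of these markers was not tested. noCHO livers 31 and 33 had 37.7 and 49.5 CPM of it, within the highCHO range. It was lost without any 1 fasted library or without highCHO 38 or 45 (0.0650 to 0.116), and with the library set as a term its change was 0.48 (adjusted p = 0.800). ipu-miR-7550_L-1R-1, of 16 nt, had 105, 64.6, 43.3 and 144.1 CPM against 411, 571, 615 and 511 CPM (log2 2.55, SE 0.44, adjusted p = 0.00712). The 18-nt predicted candidate PC-5p-219_12291 had 453, 364, 492 and 482 CPM against 1255, 2026, 2237 and 1436 CPM (log2 1.96, SE 0.25, adjusted p = 0.00119), and it differed between the meals by 1.90 (SE 0.25, adjusted p = 0.00186). For ipu-miR-7550_L-1R-1 the difference between meals was 0.89 (adjusted p = 0.265), and its 440 CPM in noCHO 31 lay within the highCHO range. Both short sequences did not overlap between fasted and highCHO livers, and both are of high G and C content, 68.8% and 72.2%. ipu-miR-7550_L-1R-1 is called a miRNA by its deposited name only. Whether it is a fragment of another RNA, such as a tRNA, was not tested, and the same holds for its seed sum.

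**Figure D3:**
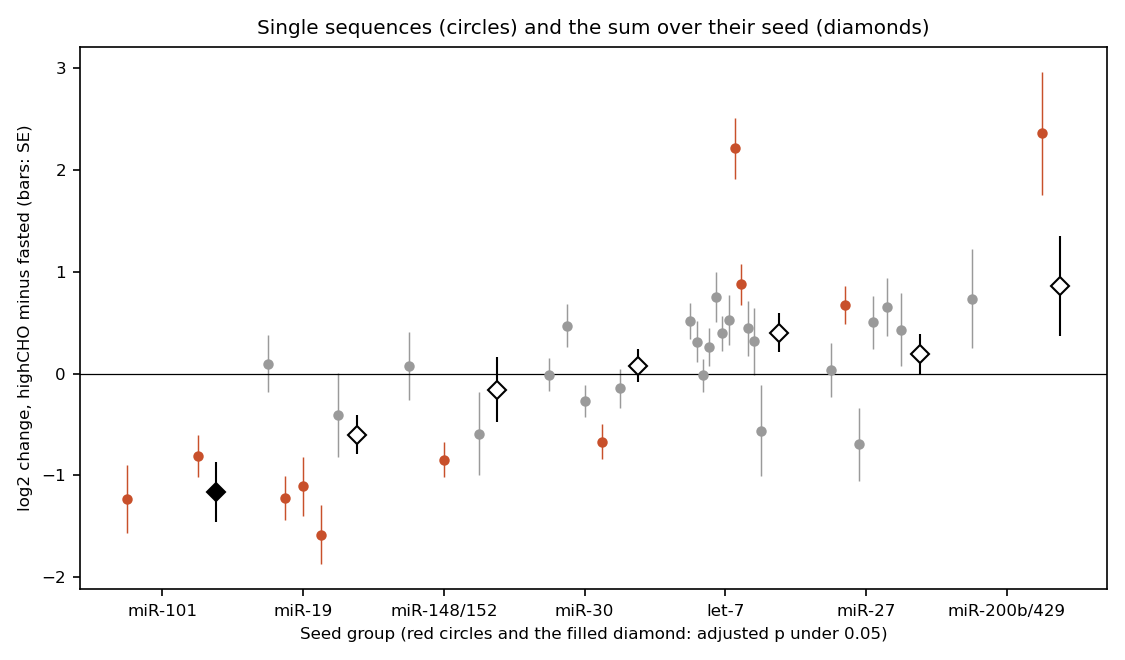
Fitted log2 change (highCHO minus fasted, vertical axis, bars are SE) of single sequences (circles) and of the sum over their shared seed (diamonds) for 7 seed groups on the horizontal axis. The miR-101 diamond is filled (adjusted p under 0.05), while the miR-19, miR-148 and miR-152, miR-30, let-7, miR-27 and miR-200b diamonds are open although each group holds at least 1 called sequence.

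When counts were summed by seed, 9 of 219 seeds passed (4.11%), 5 higher (2.28%) and 4 lower (1.83%). Besides the 6 given above they were the seeds of miR-722 (log2 −0.89, adjusted p = 0.0442), of ipu-miR-7550_L-1R-1 (2.33, adjusted p = 0.00746) and of the candidate (1.89, adjusted p = 8.26e-04). Against noCHO 4 seeds passed (1.83%), 3 higher (1.37%) and 1 lower (0.457%), among them those of miR-145-3p, miR-722 and the candidate (adjusted p = 0.00837, 0.0373 and 0.00102). The number of seeds was 4 without fasted 8, 4 without fasted 10, 5 without fasted 13 and 21 without highCHO 38. The miR-722 seed was lost without fasted 8, 10 or 13 or highCHO 45 or 49 (0.0683 to 0.114).

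The balance of the strands was compared as the log2 ratio of 5p to 3p counts in 44 miRNAs with both arms named and counted, using limma. It changed in 8 of them (18.2%), 5 toward 5p (11.4%) and 3 toward 3p (6.82%). For miR-27d the ratio was −3.89, −4.30, −4.18 and −3.53 in fasted livers 7, 8, 10 and 13 and −2.86, 0.53, −0.49 and −1.37 in highCHO livers 38, 45, 49 and 50. The shift toward 5p was 2.93 (SE 0.59, adjusted p = 0.0114) without overlap, and it differed from noCHO by 2.60 (adjusted p = 0.0204). The abundant dre-miR-27d_R-1_2ss11CT20TG begins with all the bases of ssa-miR-27d-3p, but it names no arm and is not in that ratio. Nor is ola-miR-27c-5p_L+1R+1_1ss12CA, which is named for miR-27c. The ratio is thus not the full balance of the miR-27d strands. For miR-128 the ratio rose by 1.65 (SE 0.40, adjusted p = 0.0194), on arms with as few as 3 counts and without ccr-miR-128, whose name gives no arm.

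Other ratios moved by smaller amounts. miR-26a, in mammals a regulator of hepatic insulin sensitivity, had mean ratios of 9.17 in fasted and 9.92 in highCHO livers, a shift of 0.75 (SE 0.22, adjusted p = 0.0301). Its 3p arm had a mean of 45.6 counts beside 30503 for 5p. The seed sum of its main 5p strand, TCAAGTA, changed by 0.22 (SE 0.15, edgeR adjusted p = 0.451). miR-301c and miR-25 shifted toward 5p by 1.17 (SE 0.34, adjusted p = 0.0301) and 1.31 (SE 0.41, adjusted p = 0.0438). miR-194a, an abundant liver and gut miRNA, went from 4.995 to 4.09 (−0.91, SE 0.22, adjusted p = 0.0194). miR-15b and miR-27b shifted toward 3p by −1.29 (SE 0.35, adjusted p = 0.0301) and −0.81 (SE 0.26, adjusted p = 0.0451). An arm had as few as 9.5 counts in a library for miR-301c, 5.5 for miR-25 and 3 for miR-27b. The median shift of all 44 was 0.18. Differences between the meals passed for miR-27d, miR-128, miR-26a, miR-25 and miR-27b, 5 of the 7 (15.9%) that passed that contrast, which were 5 toward 5p (11.4%) and 2 toward 3p (4.55%).

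The strand calls rested on few libraries. Their number was 5 without fasted 8, 1 without fasted 10, 4 without fasted 13, 2 without highCHO 45 and 4 without highCHO 50. In the fits that left out 1 of the 8 libraries, miR-27d passed in all, and miR-194a was lost without fasted 10 (0.0626). miR-128 and miR-15b were lost without fasted 10 or highCHO 45 (0.0505 to 0.0838). miR-301c was lost in 5 fits (fasted 8, 10 and 13, highCHO 45 and 50), miR-26a in 6 (those and highCHO 38), miR-27b in 6 (fasted 7, 10 and 13, highCHO 45, 49 and 50) and miR-25 in 7 (all but highCHO 49), with adjusted p of 0.0501 to 0.132.

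**Figure D4:**
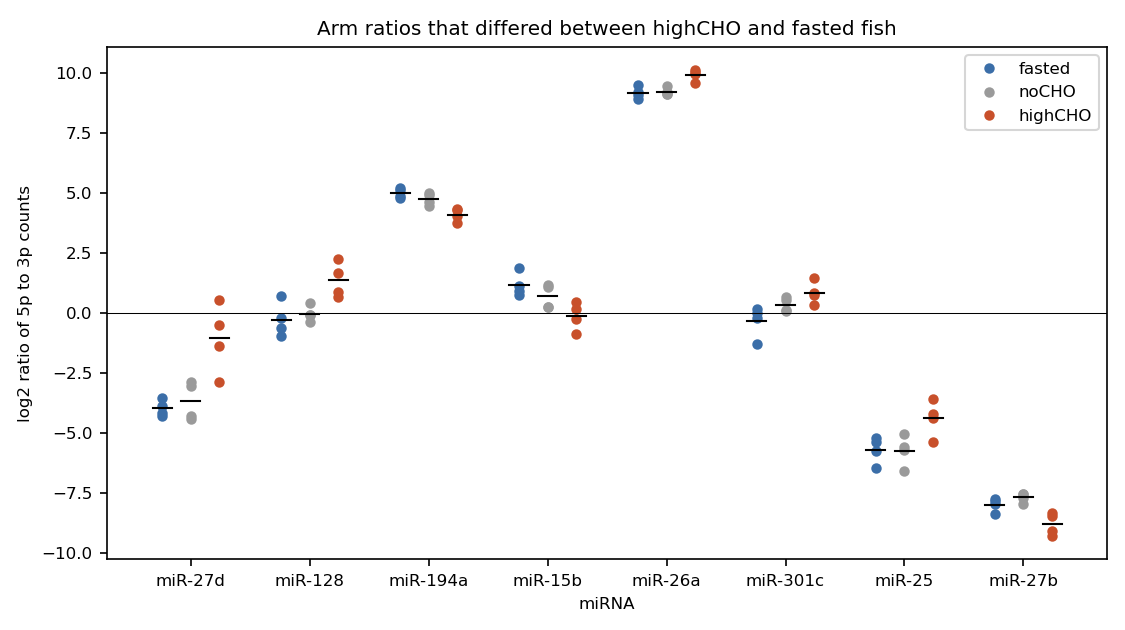
log2 ratio of 5p to 3p counts (vertical axis) in each library for the 8 miRNAs whose ratio differed between highCHO and fasted liver, with black bars for group means. miR-27d shows the widest gap, from a fasted mean of −3.97 to a highCHO mean of −1.05, while the miR-128, miR-25 and miR-27b groups overlap. Only sequences whose names give an arm were counted, which leaves out the abundant dre-miR-27d_R-1_2ss11CT20TG and ccr-miR-128.

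Of the 28 tested sequences on the list for insulin and glucose metabolism, 13 were higher and 15 lower (median log2 −0.10), and 1 fell, fru-miR-152 (3.57%, beside 6.18% called over all sequences). Of its abundant members, ccr-miR-143, dre-miR-181a-5p and ssa-miR-26a-5p did not pass. Of the 42 in lipid and cholesterol handling, 24 were higher and 18 lower (median 0.11). There 4 rose (9.52%), 2 of the 9 miR-27 sequences and 2 of the 5 miR-128 sequences, and ssa-miR-30e-5p fell (2.38%), beside 3.24% higher and 2.94% lower over all sequences. These 4 risers include 3 5p strands, whereas the mammalian lipid work on miR-27 and miR-128 concerns mainly the 3p strands. The highest levels in that list belonged to ssa-miR-30b-5p_R-4, dre-miR-148_R-1, dre-miR-30e-5p_R+2 and dre-miR-122_R-1, and none of these 4 passed. Of 20 hepatocyte sequences 12 were higher and 8 lower (median 0.11), with the 3 miR-101 calls (15.0%, beside 2.94% lower over all sequences). Of 16 from earlier trout feeding studies 8 were higher and 8 lower (median −0.08), with 0 calls by edgeR (beside 6.18%). All these lists were chosen with earlier results of these data known, so their shares are descriptions only.

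Base composition moved with the change. Across the 340 sequences, Spearman's rho between the G and C percentage and the log2 change was 0.26, and −0.01 for noCHO minus fasted. These are descriptions over sequences that share the same libraries. The 40 sequences of at most 35% G and C had a median change of −0.17, and the 31 over 55% had 0.31. The sequences that fell had 31.8 to 47.8% and those that rose 40.9 to 73.9%. With a correction for G and C content, chosen after seeing the data, 14 passed, 13 of them among the 21. ssa-miR-30e-5p (adjusted p = 0.0655), fru-miR-152 (0.0518), dre-miR-722_L-2 (0.0655), dre-miR-27b-3p_R-1 (0.111), ssa-miR-128-2-5p (0.0551), ssa-miR-128-1-5p_1ss12CT (0.156), fru-miR-101b_2ss21AC22GT (0.0934) and dre-miR-101a (0.0672) did not.

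With the library set as a term, 7 of the 21 sequences passed: ssa-miR-30e-5p, dre-miR-722_L-2, ssa-miR-27d-5p, ssa-miR-19c-3p_R-1, dre-miR-19a-3p_L+1R-2, fru-miR-101b_2ss21AC22GT and ola-miR-101b-5p. The other 14 did not (adjusted p 0.0724 to 0.800), and among them ipu-miR-7550_L-1R-1 went to 1.58 and dre-let-7c-5p_1ss19GC to 1.12. Only the noCHO group has libraries of both sets, so the term rests on noCHO 20 and 21 against 31 and 33. dre-let-7c-5p_1ss19GC itself defines the sets, so its drop with this term was built in and is no test of it. With a term for the short-insert percentage, 2 of the 21 passed, ssa-miR-145-3p_L+2R-1 and dre-let-7c-5p_1ss19GC. Because that percentage did not overlap between fasted and highCHO libraries, its term takes up part of the contrast itself. Calls lost with it therefore do not show what short inserts did. The other 19 did not (adjusted p 0.0597 to 0.509), and among them fru-miR-152 went to −0.51, dre-miR-101a to −0.40, dre-miR-19d-3p_1ss13TA to −0.41 and dre-miR-27b-3p_R-1 to 0.34.

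**Figure D5:**
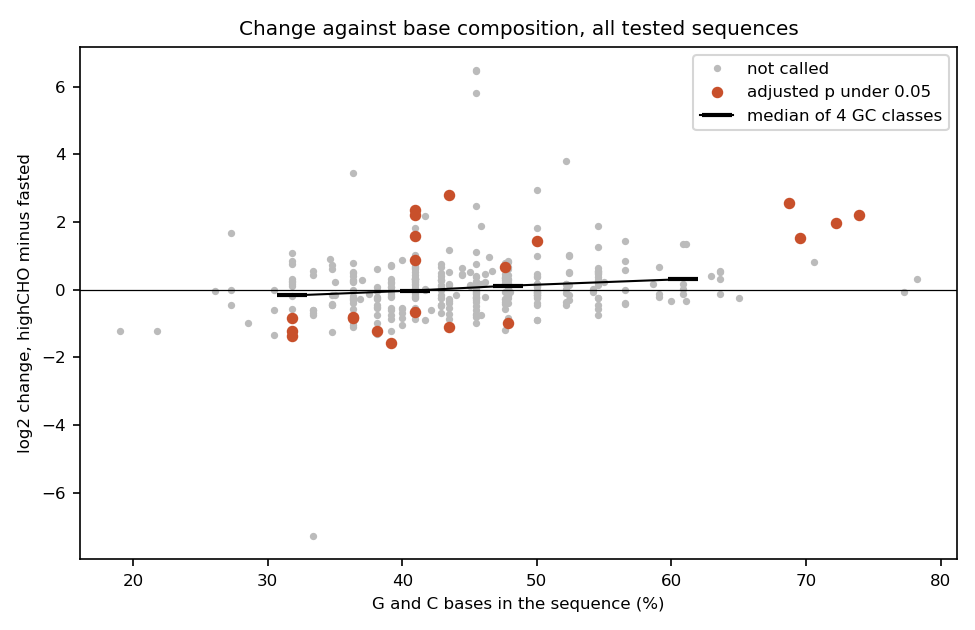
Fitted log2 change (highCHO minus fasted) against the percentage of G and C bases for all 340 tested sequences, with the 21 called in red and the medians of 4 classes joined by a black line. The class medians climb from −0.17 to 0.31.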

How the data were processed

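The authors deposited 1 table of read totals per library (a count of raw, adapter-containing, short, long and mappable reads) and 1 table with an estimated count per library for each miRNA sequence, where reads shared between sequences were split, so that 85.1% of values were whole. Per the submitters' processing notes, Bowtie 1.1.1 was used. None of its role, the miRNA database, the genome build or the rule for splitting reads is given in the sources used here. The authors' normalized signal in the same table was not used.

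The estimated counts were rounded and tested in edgeR 4.0.16 (R 4.3.3; TMM scaling, expression filter by group, all 12 libraries in 1 quasi-likelihood fit). The filter kept 340 sequences (291 known, 49 predicted candidates) with 99.87% of counts. Seed sums used the same test. Arm ratios used limma 3.58.1 on log2 ratios with a pseudocount of 0.5 and a mean of at least 10 counts per arm. Tests were two-sided, with Benjamini-Hochberg adjustment and a threshold of 0.05. Each SE is the log2 change over the root of its F statistic. Libraries held 197684 to 3057706 counts, and in the shallowest 1 CPM is 0.198 counts. The table held 0 unmapped sample columns and no identical libraries.

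Sequences past the threshold were named, with their relatives and the most abundant list members. fru-miR-200a_R-1 and dre-miR-199-3p_L-1 and the families in the last part were named after their values were seen. Members and lists were chosen with earlier results of these data known. Fits were tested on simulated data. Alternatives were other scalings, filters, pseudocounts and models (DESeq2 1.42.0), terms for library set and short inserts, and fits without each library. Chosen after seeing the data were the G and C correction, the seed sums without short sequences and the values within a library set.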

Additional observations from a re-analysis of the deposited data

Results flagged for a closer look

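dre-miR-101a had 243 CPM in highCHO 49, far from the 422 to 428.99 CPM of the other 3 highCHO livers. The pancreas marker miRNAs summed to 16100 CPM in highCHO 38, while the other 3 highCHO livers had no more than 261 CPM and fasted livers 166 to 376 CPM. Over many groups, the criterion used (Dixon's test at the 95% level) marks about 1 in 20 by chance, which says nothing of either value.

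Among all 340 tested sequences, 8 (2.35%) passed the edgeR contrast of highCHO minus noCHO. That contrast shares the highCHO libraries with the one that picked the 21 sequences, so the 2 are not independent. By it, the change from fasting differed between the meals for 6 of the 21 sequences. All highCHO libraries but only noCHO 31 and 33 belong to the library set with the higher A19C share. Meal and library set are thus partly mixed in this contrast too. The log2 differences were 1.90 for PC-5p-219_12291, 1.19 for ssa-miR-145-3p_L+2R-1, −1.55 for dre-miR-19c-3p_1ss23GT, −0.96 for fru-miR-152, −1.02 for dre-miR-722_L-2 and 0.79 for dre-miR-27b-3p_R-1. The same contrast on the log2 ratio of 5p to 3p counts (limma) gave 2.60 for miR-27d, 1.40 for miR-128, 0.71 for miR-26a, 1.35 for miR-25 and −1.10 for miR-27b. The libraries compared differ in short inserts too, at 6.18 to 13.0% in noCHO and 14.2 to 32.2% in highCHO libraries. With no overlap, a term for short inserts cannot cleanly separate them from the meal, and their part in the differences was not tested.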

How the results depend on the processing

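No named sequence, seed sum or arm ratio reversed its direction in any alternative run: 548 single values stayed on their side of the threshold and 269 no longer passed. The 21 calls against fasted became 13 with scaling to the sample total, 54 with no filter, 39 with DESeq2 (all 21 among them), 3 with the short-insert term, 13 with the set term (7 of the 21 among them) and 7 to 25 when 1 library was left out. Scaling to the sample total moved the median change from 0.03 to −0.19. The 9 seed sums became 41 with no filter, 28 with DESeq2, 4 with the short-insert term, 4 without the called sequences under 19 nt and 4 to 21 with 1 library left out. The 8 arm ratios became 3 with a minimum mean of 50 counts, 1 with a minimum of 2, 1 with only the groups compared, 0 with the short-insert term (limma; 13 at an unadjusted p under 0.05) and 1 to 11 with 1 library left out. The 8 sequences against noCHO became 3 with scaling to the sample total, 52 with no filter, 24 with DESeq2, 4 with only the groups compared, 1 with the short-insert term, 18 with the set term and 2 to 18 with 1 library left out. The DESeq2 runs also left out the expression filter, so their numbers reflect the model and the filter together. The causes were not tested. The shallow highCHO 49 limits the precision of low sequences. No paired analysis was possible because the groups share no replicate numbers.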

Other observations

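Many families with few tested sequences had all of them on 1 side without a call. miR-20, miR-125, miR-192, miR-200, miR-203 and miR-451 were among these, so this does not set apart the families given here. All 5 miR-29 sequences, whose mammalian targets include collagens and DNA methyltransferases, were lower in highCHO liver. ssa-miR-29b-3p had 125.8 ± 22.1 CPM in fasted and 61.3 ± 15.8 CPM in highCHO livers (mean ± SD, n = 4 each; edgeR log2 −1.03, SE 0.32, adjusted p = 0.0753), without overlap. The 3 miR-142 sequences, leukocyte miRNAs in mammals, had a median log2 change of −0.75, while the leukocyte markers summed to 33082 to 55543 CPM in fasted and 26921 to 60343 CPM in highCHO livers. The 3 miR-10 sequences were higher (median 1.81). Their levels differ widely, and the miR-10 seed ACCCTGT, led by dre-miR-10c-5p, summed to 4645 ± 380 CPM in fasted and 6280 ± 1920 CPM in highCHO livers. That sum did not pass (log2 0.44, SE 0.20, edgeR adjusted p = 0.207). dre-miR-10b-5p_R-1 had 262, 113, 138 and 70.9 CPM in fasted livers 7, 8, 10 and 13 and 1191, 263, 305 and 280 CPM in highCHO livers 38, 45, 49 and 50, with liver 38 far above the rest (log2 1.81, SE 0.58, adjusted p = 0.0810). Liver 38 is also the liver with the high pancreas marker sum.

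2 sequences differed between the meals without passing against fasted. fru-miR-200a_R-1, an epithelial miRNA, had 3180 ± 1179 CPM in highCHO and 1335 ± 180 CPM in noCHO livers (log2 1.25, SE 0.25, adjusted p = 0.0178) and was lost without noCHO 31 (0.0574). dre-miR-199-3p_L-1 had 2307 ± 292 against 3820 ± 282 CPM (log2 −0.73, SE 0.15, adjusted p = 0.0194) and was lost in 6 of 8 fits that left out 1 library (0.0618 to 0.117), those without noCHO 21, 31 or 33 or highCHO 45, 49 or 50.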
